A study of Mus musculus with 18 samples.

Results

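The genes described here are 46 components of the lysosome and their transcriptional regulators, out of the 16474 genes measured in mouse macrophages. They were chosen by name, as every row of the expression table whose gene symbol is on a list of cathepsins, acid hydrolases, hydrolase cofactors, lysosomal membrane proteins, proton pump subunits and transcription factors. All 46 were found, each on 1 row, and all 46 were abundant enough to be tested. By role they are 11 proteases, 10 glycosidases, 4 sulfatases, 4 lipid-degrading enzymes, 5 cofactors and lipid-binding proteins, 5 membrane proteins, 4 subunits of the vacuolar proton pump (V-ATPase) and 3 transcription factors of the MiT/TFE family.

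RNA was sequenced from macrophages grown from the marrow of C57BL/6 mice aged 8 weeks, either p110g-/- or wild type (WT). Cells labelled p110g-/- lack p110gamma, which Pik3cg encodes and which is the catalytic part of the lipid kinase PI3K gamma; the labels do not describe the allele further. Marrow of both genotypes was first kept for 6 days with M-CSF at 50 ng/ml, which turns its precursors into macrophages, and M-CSF stayed in the medium at 20 ng/ml afterwards. The 6 groups, with 3 libraries each, were p110g-/- macrophages given interferon gamma (IFNg) with bacterial lipopolysaccharide (LPS, 100 ng/ml) for 24 h, p110g-/- macrophages given interleukin 4 (IL-4, 20 ng/ml) for 48 h, p110g-/- macrophages kept in M-CSF alone for 24 h, and WT macrophages under the same 3 conditions. The labels number the libraries of a group 1 to 3 and do not say whether they came from separate animals, so p-values measure only the spread between libraries.

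Lysosomes break down proteins, sugar chains and lipids with hydrolases that work at acid pH, which the V-ATPase maintains by pumping protons across the lysosomal membrane. Macrophages hold many of them, because they digest what they engulf and prepare antigen for presentation there. Interferon gamma with LPS and IL-4 are the classic stimuli of the inflammatory and the alternative macrophage state. Tfeb, Tfe3 and Mitf are related transcription factors that bind E-box motifs in the promoters of many lysosomal genes and raise their transcription.

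Promoters are shown first for the 6 members with the lowest adjusted p in WT macrophages under IFNg/LPS among those whose promoter held the E-box letters CACGTG. They are taken from RefSeq on build GRCm38.p6, a window of 300 bases from 250 bases before to 50 bases after the start site, on the gene's strand. Capitals mark CACGTG, which reads the same on both strands and lies inside the longer motifs searched, TCACGTGA and the CLEAR palindrome, which puts a G before and a C after TCACGTGA. Sgsh lies at chr11:119355461-119355760 on the minus strand, Ctsf at chr19:4854915-4855214 on the plus strand, Glb1 at chr9:114400828-114401127 on the plus strand, Gla at chrX:134600956-134601255 on the minus strand, Arsa at chr15:89477375-89477674 on the minus strand and Ctsd at chr7:142387778-142388077 on the minus strand. Sgsh, Ctsf, Glb1, Arsa and Ctsd were lower under IFNg/LPS, and Gla was higher.
Sgsh promoter: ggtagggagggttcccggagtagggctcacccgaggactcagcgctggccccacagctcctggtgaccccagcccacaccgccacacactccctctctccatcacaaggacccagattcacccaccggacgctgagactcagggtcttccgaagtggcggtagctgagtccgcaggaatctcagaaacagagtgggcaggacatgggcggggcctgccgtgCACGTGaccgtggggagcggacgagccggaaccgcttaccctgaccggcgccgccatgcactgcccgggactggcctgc
Ctsf promoter: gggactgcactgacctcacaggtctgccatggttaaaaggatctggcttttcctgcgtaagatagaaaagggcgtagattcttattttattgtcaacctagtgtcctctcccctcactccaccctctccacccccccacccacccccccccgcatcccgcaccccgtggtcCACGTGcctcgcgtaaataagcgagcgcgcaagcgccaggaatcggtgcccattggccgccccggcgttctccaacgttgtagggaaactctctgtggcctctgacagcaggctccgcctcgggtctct
Glb1 promoter: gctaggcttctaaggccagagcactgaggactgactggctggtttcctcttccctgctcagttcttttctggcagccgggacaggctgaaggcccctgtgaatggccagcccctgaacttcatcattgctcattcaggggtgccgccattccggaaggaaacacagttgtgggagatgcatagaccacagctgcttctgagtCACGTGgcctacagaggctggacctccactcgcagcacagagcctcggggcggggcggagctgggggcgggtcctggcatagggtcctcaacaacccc
Gla promoter: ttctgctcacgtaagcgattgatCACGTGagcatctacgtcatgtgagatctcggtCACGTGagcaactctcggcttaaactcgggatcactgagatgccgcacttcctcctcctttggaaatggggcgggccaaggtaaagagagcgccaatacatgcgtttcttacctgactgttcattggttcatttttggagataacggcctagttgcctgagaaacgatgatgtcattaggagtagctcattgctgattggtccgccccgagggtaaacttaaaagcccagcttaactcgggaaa
Arsa promoter: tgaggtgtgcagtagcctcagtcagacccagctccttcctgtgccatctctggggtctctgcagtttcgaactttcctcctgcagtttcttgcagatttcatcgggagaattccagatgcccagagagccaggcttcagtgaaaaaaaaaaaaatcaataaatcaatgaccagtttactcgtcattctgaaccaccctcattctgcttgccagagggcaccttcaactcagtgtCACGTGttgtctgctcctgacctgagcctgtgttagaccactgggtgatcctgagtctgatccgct
Ctsd promoter: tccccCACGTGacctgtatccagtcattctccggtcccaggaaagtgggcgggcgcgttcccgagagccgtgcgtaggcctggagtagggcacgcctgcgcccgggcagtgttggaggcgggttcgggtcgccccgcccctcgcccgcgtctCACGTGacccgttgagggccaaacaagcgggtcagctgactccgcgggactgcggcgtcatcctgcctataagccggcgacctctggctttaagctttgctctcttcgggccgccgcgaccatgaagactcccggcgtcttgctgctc

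Relative to the start site, the first base of CACGTG lay at -29 in Sgsh, -79 in Ctsf, -48 in Glb1 and -16 in Arsa. Gla held the motif at -227 and -194, both times inside TCACGTGA. Ctsd held it at -245 and -98, and there the match at -98 lay inside TCACGTGA. Of the 46 members 40 had a promoter in the RefSeq table, and 15 of these (37.5%) held CACGTG, against 11.2% of the 11494 tested genes that had a promoter there. Counted by promoter, CACGTG was in 31.2% of the members' 48 promoters and in 7.15% of all 32851. TCACGTGA was found in 6 members (15%: Ctsa, Ctsd, Gla, Mcoln1, Atp6v0d1 and Atp6v1a), against 2.03% of those genes, and in 0.974% of all promoters. The CLEAR palindrome, named for the element known from lysosomal genes, was found in 0 of the 40 members and in 0.731% of those genes, and in 0.326% of all promoters.

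Expression is given as signal, the deposited normalised read count per gene, and every signal below is divided by 1000 unless stated otherwise. Library depth ran from 40.1 to 69.6 M reads (M, 1e6), and 3 reads, the count that a gene listed at 0 may still stand for, were worth an undivided signal of 2.15 to 4.74, far below every member. Macrophage markers (8 of 9 in the table, led by the lysozyme gene Lyz2) summed to a signal of 590 to 690 in p110g-/- IFNg/LPS, 450 to 534 in p110g-/- IL-4, 932 to 966 in p110g-/- M-CSF, 644 to 707 in WT IFNg/LPS, 501 to 554 in WT IL-4 and 884 to 1040 in WT M-CSF libraries. None of these markers was at or under the level of 3 reads in all libraries of a group. Over all 18 libraries, the summed signal of markers of other cells was 0.237 to 3.63 for fibroblasts (7 of 7 in the table), 0.0445 to 0.617 for B cells (4 of 5), 0.06 to 0.11 for T and NK cells (3 of 6), 0.0485 to 0.354 for mast cells and basophils (4 of 5) and 0.0007 to 0.0075 for erythroid cells (1 of 4). In such bulk samples, fewer cells of a type and less RNA per cell cannot be told apart.

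The targeted gene did not separate the genotypes under every condition. Pik3cg signal was 3.69, 1.41 and 2.04 in the p110g-/- libraries 1, 2 and 3 under IFNg/LPS, against 3.56, 2.31 and 2.6 in the WT libraries under IFNg/LPS. The library labelled p110g-/- IFNg/LPS number 1 therefore lay above all 3 WT libraries, and the other two lay below them. The log2 fold change of Pik3cg there was -0.34 (adjusted p = 0.37). In IL-4, Pik3cg signal was 0.956, 1.08 and 0.965 in p110g-/- against 3.07, 2.95 and 3.28 in WT libraries, and in M-CSF its signal was 1.89, 2.05 and 1.97 in p110g-/- against 5.31, 5.33 and 4.99 in WT libraries. Those groups did not overlap (log2 fold change -1.63 in IL-4, adjusted p = 0.00063, and -1.41 in M-CSF, adjusted p = 0.0027). The labels do not give the deleted part of the gene, so reads outside it may still be counted. On the third principal component of all genes, which held 3.08% of the variance, the 9 p110g-/- libraries, this one included, lay between 14.2 and 26.9 and the 9 WT libraries between -29.2 and -9.1. Calls on p110g-/- IFNg/LPS are given with and without that library where it changes them. Shares, sums and median fold changes are given with it only.

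Number 1 also stood apart in the members under IFNg/LPS in both genotypes. It was the lowest library of its group for 34 of the 46 members in p110g-/- and for 37 of the 46 in WT. Number 1 lay apart over all genes too, on the first principal component (73.6% of the variance). There it was at 159 in p110g-/- IFNg/LPS, against 136 and 141 for numbers 2 and 3. In WT IFNg/LPS it was at 161, against 136 and 137. Lipa, the acid lipase that frees cholesterol and fatty acids, had signals of 28.7, 61.2 and 56.2 in p110g-/- and 37.6, 67.2 and 62.2 in WT libraries under IFNg/LPS. Under IL-4, WT library 1 was the highest of its group for 37 members and WT library 3 the lowest for 36.

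Levels can be compared between genes only per length, here as signal divided by 1000 per kilobase of the principal transcript. In p110g-/- M-CSF macrophages the most abundant members were Psap at 376, Ctsd at 331, Ctss at 280 and Ctsb at 211, and the least abundant was Ctsf at 0.503. In WT M-CSF macrophages they were Ctsd at 312, Psap at 305, Ctss at 239 and Ctsb at 211, and Ctsf was again last at 0.513. Psap, the precursor of the saposins that help hydrolases reach their lipid substrates, ranked 1 of 46 in the other 5 groups. Lipa ranked 13 in p110g-/- IFNg/LPS and 15 in WT IFNg/LPS, against 5 in p110g-/- M-CSF and 5 in WT M-CSF cells. Together the 46 members took 3.96 to 5.43% of the reads in p110g-/- IFNg/LPS and 4.91 to 6.02% in WT IFNg/LPS libraries, against 9.16 to 9.82% in p110g-/- M-CSF and 8.49 to 9.22% in WT M-CSF libraries. In IL-4 they took 8.94 to 9.63% in p110g-/- and 8.52 to 10% in WT libraries, which overlap the M-CSF values. The share depends on the total, and on the deposited scale the total signal, here undivided, was itself higher under IFNg/LPS, at 60.8 to 62.7 M (1e6) in p110g-/- IFNg/LPS and 64.2 to 67.6 M in WT IFNg/LPS, against 46.1 to 47.4 M in p110g-/- M-CSF and 45.7 to 46.6 M in WT M-CSF libraries. The undivided summed signal of the members was 2.49 to 3.3 M in p110g-/- IFNg/LPS and 3.32 to 3.91 M in WT IFNg/LPS, against 4.22 to 4.62 M in p110g-/- M-CSF and 3.88 to 4.3 M in WT M-CSF libraries, so that the WT ranges overlapped. In p110g-/- the mean IFNg/LPS share was 0.505 times and the mean summed signal 0.665 times the M-CSF mean, and in WT they were 0.62 times and 0.88 times. The fold changes of single genes are on the deposited scale.

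**Figure D1:**
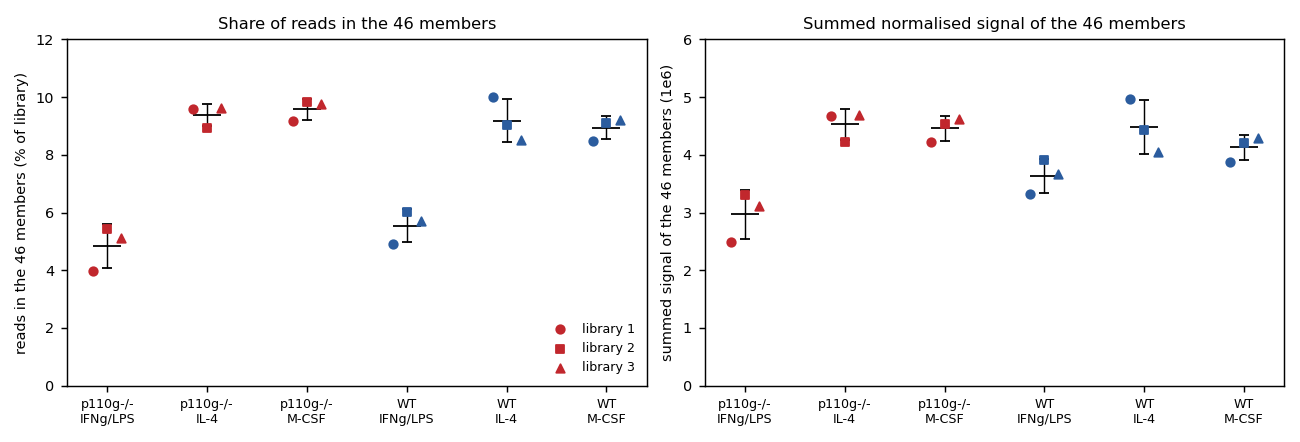
Left, share of each library's reads, in percent, that fell on the 46 members, and right, the summed deposited signal of the members in 1e6, by group. Circles, squares and triangles are libraries 1, 2 and 3, red p110g-/- and blue WT, and black bars are the mean ± SD; the IFNg/LPS shares (3.96 to 6.02%) lie below the 8.49 to 10% of the other 12 libraries, while the summed signals differ less and overlap in WT (3.32 to 3.91 in IFNg/LPS, 3.88 to 4.3 in M-CSF).

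The first comparison was of IFNg/LPS with M-CSF, within each genotype. Most of the 46 members were lower under IFNg/LPS, among them the sulfatase Sgsh, the glycosidases Gusb, Man2b1, Manba and Hexa and the protease Ctsf, while Ctsc, Ctsh, Ctsz, Gla, Npc2, Lamp2 and Atp6v0d1 were higher in both genotypes. In p110g-/- macrophages 7 members rose and 31 fell, against 36.2% of all tested genes that rose and 36.8% that fell (73% in either direction). In WT macrophages 11 members rose and 26 fell, against 36.3% and 37.5% of all tested genes (73.8%). Without the library labelled p110g-/- IFNg/LPS number 1, 8 members rose and 26 fell in p110g-/-. Here and below, a gene was called at a Benjamini-Hochberg adjusted p under 0.05 over the 15627 genes tested with limma. The median log2 fold change of the members was -0.68 in p110g-/- and -0.39 in WT macrophages, and that of all tested genes was -0.0093 in p110g-/- and -0.006 in WT. The same 7 members rose in both genotypes, 7 of 7 in p110g-/- and 7 of 11 in WT, and 25 fell in both, 25 of 31 in p110g-/- and 25 of 26 in WT. Of all tested genes 31.9% rose in both (88.1% of those that rose in p110g-/- and 87.8% in WT) and 32.6% fell in both (88.6% of those that fell in p110g-/- and 86.8% in WT). A call in 1 genotype alone is no difference between the genotypes, which was tested as an interaction.

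**Figure D2:**
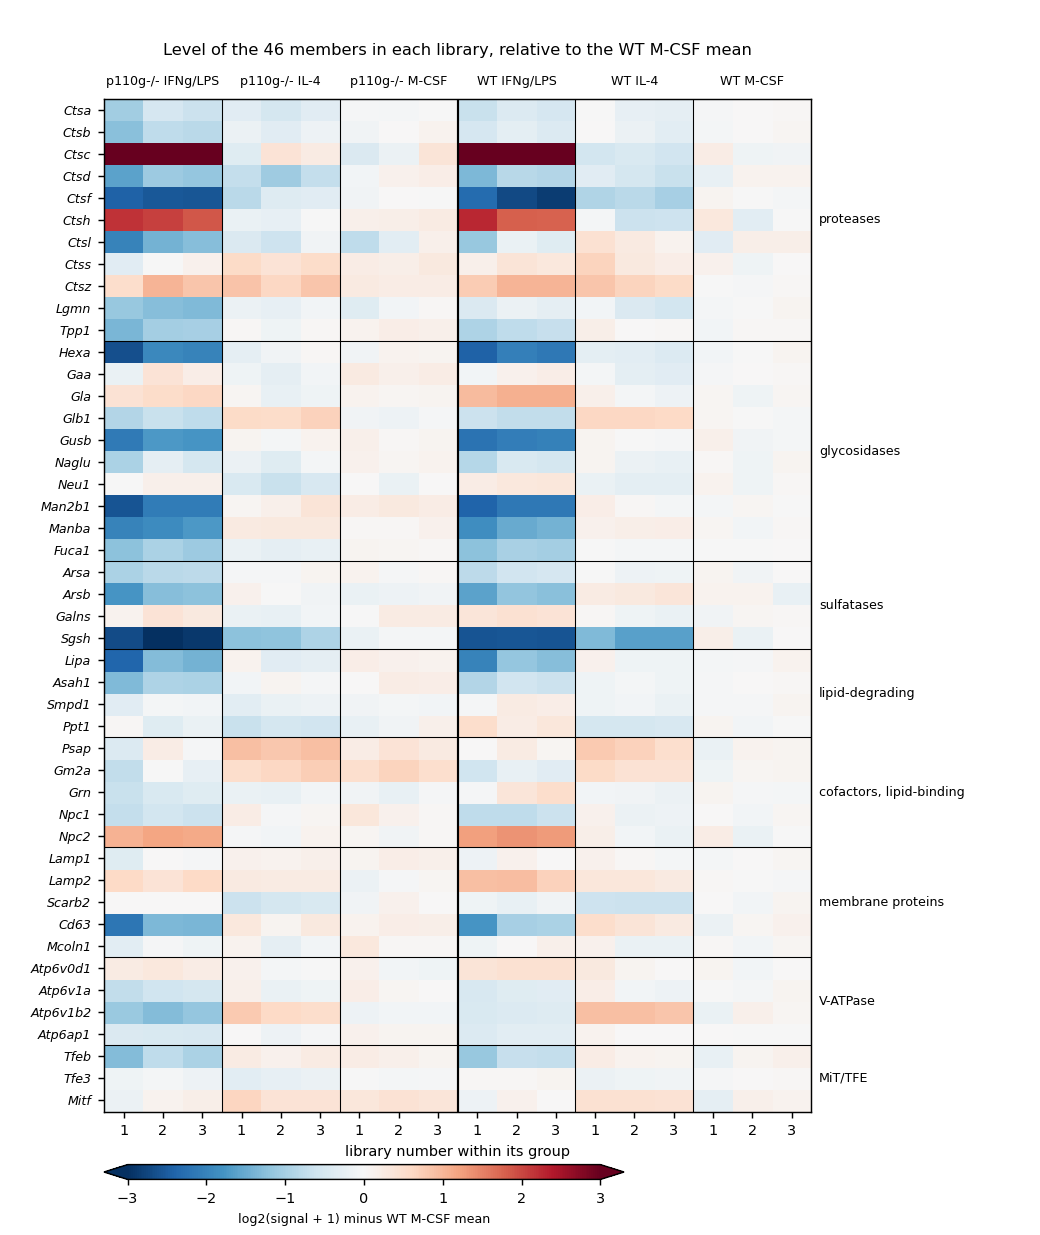
Log2 signal of each member (rows, grouped by role) in each of the 18 libraries (columns, by group), relative to the mean of the WT M-CSF libraries. Colour runs over log2 differences from -3 to 3, beyond which it is saturated; 25 members fell and 7 rose under IFNg/LPS in both genotypes.

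Among the proteases, Ctsc, Ctsh and Ctsz rose in both genotypes and 6 of the 11 fell in both. Ctsc, the dipeptidyl peptidase that activates serine proteases of immune cells, had signals of 120, 106 and 108 in p110g-/- IFNg/LPS against 6.77, 8.15 and 12.1 in p110g-/- M-CSF libraries. In WT it had signals of 98.2, 85.4 and 84.8 in IFNg/LPS against 10.8, 8.48 and 8.52 in M-CSF libraries. All 6 IFNg/LPS libraries lay above all 6 M-CSF libraries. The log2 fold change (± SE) was 3.67 ± 0.20 (adjusted p = 1.5e-10) in p110g-/- and 3.28 ± 0.20 (adjusted p = 5.4e-10) in WT cells, 12.7 times the M-CSF level in p110g-/- and 9.7 times in WT. Ctsh, an aminopeptidase, had signals of 73.2, 66.8 and 59.5 in p110g-/- IFNg/LPS against 18.1, 18.4 and 19.1 in p110g-/- M-CSF, and 77.6, 56.6 and 55.8 in WT IFNg/LPS against 20.3, 13.1 and 16.1 in WT M-CSF libraries. Its groups did not overlap in either genotype, with log2 fold changes of 1.84 ± 0.17 (adjusted p = 1e-07) in p110g-/- and 1.95 ± 0.17 (adjusted p = 5.4e-08) in WT cells. Ctsz, a carboxypeptidase, rose by 0.55 in p110g-/- and 0.94 in WT cells on the log2 scale.

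Ctsf, a cysteine protease, fell most among the proteases. It had signals of 0.19, 0.175 and 0.171 in p110g-/- IFNg/LPS against 0.952, 1.02 and 1.01 in p110g-/- M-CSF, and 0.205, 0.155 and 0.141 in WT IFNg/LPS against 1.07, 1 and 0.975 in WT M-CSF libraries. Every IFNg/LPS library lay below every M-CSF library (log2 fold change -2.48 ± 0.13, adjusted p = 1.8e-10 in p110g-/- and -2.62 ± 0.13, adjusted p = 9.6e-11 in WT). Ctsd, the main aspartic protease, had log2 fold changes of -1.38 in p110g-/- and -1.02 in WT cells, and Tpp1, a tripeptidyl peptidase, -1.27 in p110g-/- and -0.78 in WT cells. Ctsa, the carboxypeptidase that protects sialidase and beta-galactosidase, had a log2 fold change of -0.70 in p110g-/- and -0.53 in WT, and Ctsb, an endopeptidase, -0.94 in p110g-/- and -0.40 in WT. Lgmn, the asparaginyl endopeptidase that matures other cathepsins, had signals of 40.2, 36.1 and 34.9 in p110g-/- IFNg/LPS against 68.6, 83.5 and 90.1 in p110g-/- M-CSF, and 65.2, 78.2 and 73.2 in WT IFNg/LPS against 84.6, 86.9 and 92.4 in WT M-CSF libraries. Its log2 fold change was -1.12 ± 0.12 (adjusted p = 7e-07) in p110g-/- and -0.29 ± 0.12 (adjusted p = 0.047) in WT, and the WT call was lost with the library number as a block (adjusted p = 0.059) and when any of 12 single libraries was left out (up to 0.17). Ctsl, an endopeptidase, fell in p110g-/- cells (log2 fold change -1.27 ± 0.27, adjusted p = 0.00051) and had -0.56 ± 0.27 (adjusted p = 0.069) in WT cells, which passed the threshold with the library number as a block (adjusted p = 0.026). Ctss, which trims the invariant chain of MHC class II, was called in neither genotype (log2 fold change -0.31 ± 0.14, adjusted p = 0.053 in p110g-/- and 0.29 ± 0.14, adjusted p = 0.068 in WT).

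Of the 10 glycosidases 7 fell in both genotypes, and Gla alone rose in both. Gusb, beta-glucuronidase, had signals of 9.78, 12.9 and 12.6 in p110g-/- IFNg/LPS against 47.2, 44 and 45.2 in p110g-/- M-CSF, and 9.2, 10.2 and 10.4 in WT IFNg/LPS against 47.2, 39.8 and 41.2 in WT M-CSF libraries. The IFNg/LPS libraries of both genotypes lay below all M-CSF libraries, with log2 fold changes of -1.96 ± 0.098 (adjusted p = 7.6e-11) in p110g-/- and -2.11 ± 0.098 (adjusted p = 3.4e-11) in WT. Manba, beta-mannosidase, had signals of 0.934, 1.02 and 1.15 in p110g-/- IFNg/LPS against 3.86, 3.87 and 4.12 in p110g-/- M-CSF, and 1.03, 1.32 and 1.4 in WT IFNg/LPS against 3.89, 3.57 and 3.83 in WT M-CSF libraries. These groups did not overlap either (log2 fold change -1.94 ± 0.094, adjusted p = 5e-11 in p110g-/- and -1.60 ± 0.094, adjusted p = 4.5e-10 in WT). Man2b1, the lysosomal alpha-mannosidase, also fell (log2 fold change -2.51 in p110g-/- and -2.23 in WT), and so did Hexa, an enzyme of ganglioside breakdown (-2.21 in p110g-/- and -2.21 in WT). Fuca1, alpha-fucosidase, had log2 fold changes of -1.15 in p110g-/- and -1.08 in WT cells. Glb1, beta-galactosidase, had a log2 fold change of -0.67 in p110g-/- and -0.71 in WT, and Naglu, an enzyme of heparan sulfate breakdown, -0.67 in p110g-/- and -0.62 in WT.

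Gla, the alpha-galactosidase that removes galactose from globotriaosylceramide, had signals of 16.4, 17.8 and 18.8 in p110g-/- IFNg/LPS against 13.2, 12.7 and 13 in p110g-/- M-CSF, and 23.5, 25.5 and 25.6 in WT IFNg/LPS against 12.8, 11.1 and 12.8 in WT M-CSF libraries. All 6 IFNg/LPS libraries lay above all 6 M-CSF libraries, and under IFNg/LPS all 3 p110g-/- libraries lay below all 3 WT libraries. The log2 fold change was 0.44 ± 0.091 (adjusted p = 0.00041) in p110g-/- and 1.02 ± 0.091 (adjusted p = 5.5e-08) in WT cells. Neu1, the lysosomal sialidase, rose in WT (log2 fold change 0.29 ± 0.082, adjusted p = 0.0048) and had 0.16 ± 0.082 (adjusted p = 0.089) in p110g-/- cells. Without p110g-/- IFNg/LPS library 1 Neu1 was called higher in p110g-/- as well. Gaa, which degrades lysosomal glycogen, was called in neither (log2 fold change -0.087 in p110g-/- and 0.088 in WT).

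Of the 4 sulfatases 3 fell in both genotypes, and the fall of Sgsh had the smallest adjusted p of all 46 members. Sgsh, which removes sulfate from the glucosamine of heparan sulfate, had signals of 0.706, 0.572 and 0.605 in p110g-/- IFNg/LPS against 3.95, 4.37 and 4.38 in p110g-/- M-CSF, and 0.756, 0.765 and 0.753 in WT IFNg/LPS against 5.14, 3.95 and 4.6 in WT M-CSF libraries. Every IFNg/LPS library lay far below every M-CSF library. The log2 fold change was -2.75 ± 0.11 (adjusted p = 8.7e-12) in p110g-/- and -2.58 ± 0.11 (adjusted p = 1.7e-11) in WT. Arsb, which works on dermatan sulfate, had log2 fold changes of -1.27 in p110g-/- and -1.35 in WT cells, and Arsa, the sulfatide sulfatase, had log2 fold changes of -0.88 in p110g-/- and -0.62 in WT cells. Galns, the sulfatase of keratan sulfate, rose in WT (log2 fold change 0.40 ± 0.088, adjusted p = 0.00069) and had 0.11 ± 0.088 (adjusted p = 0.25) in p110g-/-.

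Of the lipid-degrading enzymes, Lipa and the acid ceramidase Asah1 fell in both genotypes. Lipa had log2 fold changes of -1.85 ± 0.25 (adjusted p = 5.5e-06) in p110g-/- and -1.48 ± 0.25 (adjusted p = 5.6e-05) in WT cells, and Asah1 of -1.21 ± 0.10 (adjusted p = 3.6e-08) in p110g-/- and -0.70 ± 0.10 (adjusted p = 1.6e-05) in WT. Ppt1, which removes palmitate from proteins, rose in WT (log2 fold change 0.37 ± 0.11, adjusted p = 0.0056) and had -0.11 ± 0.11 (adjusted p = 0.34) in p110g-/-. Smpd1, the acid sphingomyelinase, was called in neither (log2 fold change -0.077 in p110g-/- and 0.15 in WT).

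Of the cofactors and lipid-binding proteins, Npc2, which hands cholesterol to Npc1 for export, rose in both genotypes. It had signals of 139, 153 and 148 in p110g-/- IFNg/LPS against 69.9, 62.6 and 68.6 in p110g-/- M-CSF, and 158, 171 and 164 in WT IFNg/LPS against 77.7, 58.2 and 66.6 in WT M-CSF libraries. The IFNg/LPS libraries of both genotypes lay above all M-CSF libraries (log2 fold change 1.13 ± 0.11, adjusted p = 1.5e-07 in p110g-/- and 1.29 ± 0.11, adjusted p = 3.1e-08 in WT). Npc1, the membrane protein that takes up that cholesterol, fell in both (log2 fold change -0.81 in p110g-/- and -0.72 in WT), and so did Gm2a, the GM2 ganglioside activator (-0.89 in p110g-/- and -0.38 in WT). The WT call of Gm2a was lost without WT IFNg/LPS library 1 or without WT M-CSF library 2 or 3 (adjusted p up to 0.12). Psap fell in p110g-/- (log2 fold change -0.38 ± 0.15, adjusted p = 0.026) and had 0.10 ± 0.15 (adjusted p = 0.54) in WT, and its call was lost without p110g-/- IFNg/LPS library 1 or p110g-/- M-CSF library 2 (adjusted p up to 0.16). Grn, the precursor of the granulins, was called in opposite directions, with a log2 fold change of -0.37 ± 0.12 (adjusted p = 0.012) in p110g-/- and 0.29 ± 0.12 (adjusted p = 0.041) in WT. Its p110g-/- call was lost without IFNg/LPS library 1 (adjusted p = 0.06), and its WT call was lost when any of 5 single libraries was left out (adjusted p up to 0.22), WT M-CSF and WT IFNg/LPS numbers 2 and 3 among them. Its WT groups overlapped.

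Among the membrane proteins, Lamp2 rose in both genotypes (log2 fold change 0.60 in p110g-/- and 0.83 in WT) and the tetraspanin Cd63 fell in both (-1.79 in p110g-/- and -1.24 in WT). Lamp2 and Lamp1 are the main glycoproteins that line the lysosomal membrane. Lamp1 fell in p110g-/- (log2 fold change -0.27 ± 0.10, adjusted p = 0.023) and had -0.0032 in WT. Mcoln1, a cation channel, fell in p110g-/- (log2 fold change -0.28 ± 0.12, adjusted p = 0.04) and had 0.017 in WT. Each of these calls was lost without p110g-/- IFNg/LPS library 1 and without 2 other libraries: for Lamp1 p110g-/- M-CSF 2 or 3 (adjusted p up to 0.14), and for Mcoln1 p110g-/- M-CSF 1 or p110g-/- IFNg/LPS 3 (up to 0.18). Scarb2, a receptor that carries newly made enzyme to the lysosome, fell in WT (log2 fold change -0.16 ± 0.066, adjusted p = 0.038) and had 0.0079 in p110g-/-, and its call was lost without WT M-CSF library 1 or 3 or WT IFNg/LPS library 2 (adjusted p up to 0.15).

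Of the V-ATPase genes, 3 of 4 fell in both genotypes. Atp6v1b2, the B2 subunit of the cytosolic sector, had signals of 23.2, 20.7 and 22.7 in p110g-/- IFNg/LPS against 45.3, 47.6 and 47.6 in p110g-/- M-CSF, and 36.7, 38.2 and 38.7 in WT IFNg/LPS against 43.7, 56.7 and 52.4 in WT M-CSF libraries. Groups did not overlap in either genotype, and the log2 fold change was -1.08 ± 0.091 (adjusted p = 3.1e-08) in p110g-/- and -0.42 ± 0.091 (adjusted p = 0.00065) in WT. Atp6v1a, the catalytic subunit, had a log2 fold change of -0.71 in p110g-/- and -0.40 in WT, and the accessory protein gene Atp6ap1 -0.55 in p110g-/- and -0.35 in WT. Atp6v0d1, of the membrane sector, rose in both (log2 fold change 0.29 in p110g-/- and 0.43 in WT).

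Of the 3 transcription factors only Tfeb was called in both genotypes. It had signals of 1.41, 2.05 and 1.79 in p110g-/- IFNg/LPS against 4.07, 3.83 and 3.68 in p110g-/- M-CSF, and 1.57, 2.15 and 2.1 in WT IFNg/LPS against 2.95, 3.64 and 3.86 in WT M-CSF libraries. The groups did not overlap in either genotype, and Tfeb fell to 0.449 times its M-CSF level in p110g-/- (log2 fold change -1.16 ± 0.14, adjusted p = 1.2e-06) and to 0.554 times in WT cells (-0.85 ± 0.14, adjusted p = 3.3e-05). Tfe3 had signals of 6.79, 7.06 and 6.71 in p110g-/- IFNg/LPS against 7.32, 7.09 and 7.25 in p110g-/- M-CSF, and 7.62, 7.63 and 7.78 in WT IFNg/LPS against 7.21, 7.42 and 7.58 in WT M-CSF libraries, and was called in neither genotype (log2 fold change -0.075 ± 0.050, adjusted p = 0.18 in p110g-/- and 0.052 ± 0.050, adjusted p = 0.35 in WT). Mitf had signals of 5.82, 7.05 and 7.34 in p110g-/- IFNg/LPS against 8.3, 8.75 and 8.35 in p110g-/- M-CSF, and 5.92, 7.08 and 6.59 in WT IFNg/LPS against 5.41, 7.27 and 7.08 in WT M-CSF libraries. Mitf fell in p110g-/- (log2 fold change -0.34 ± 0.11, adjusted p = 0.013), a call lost without p110g-/- IFNg/LPS library 1 (adjusted p = 0.077), and had -0.0044 ± 0.11 (adjusted p = 0.97) in WT. Among the members with CACGTG in the promoter, 2 rose, 9 fell and 4 were not called in WT cells under IFNg/LPS, and among the 25 without it 7 rose, 13 fell and 5 were not called. Of all tested genes with a promoter, 34% rose and 43.6% fell among the 1282 with CACGTG, and 37.1% rose and 37% fell among the 10212 without it.

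**Figure D3:**
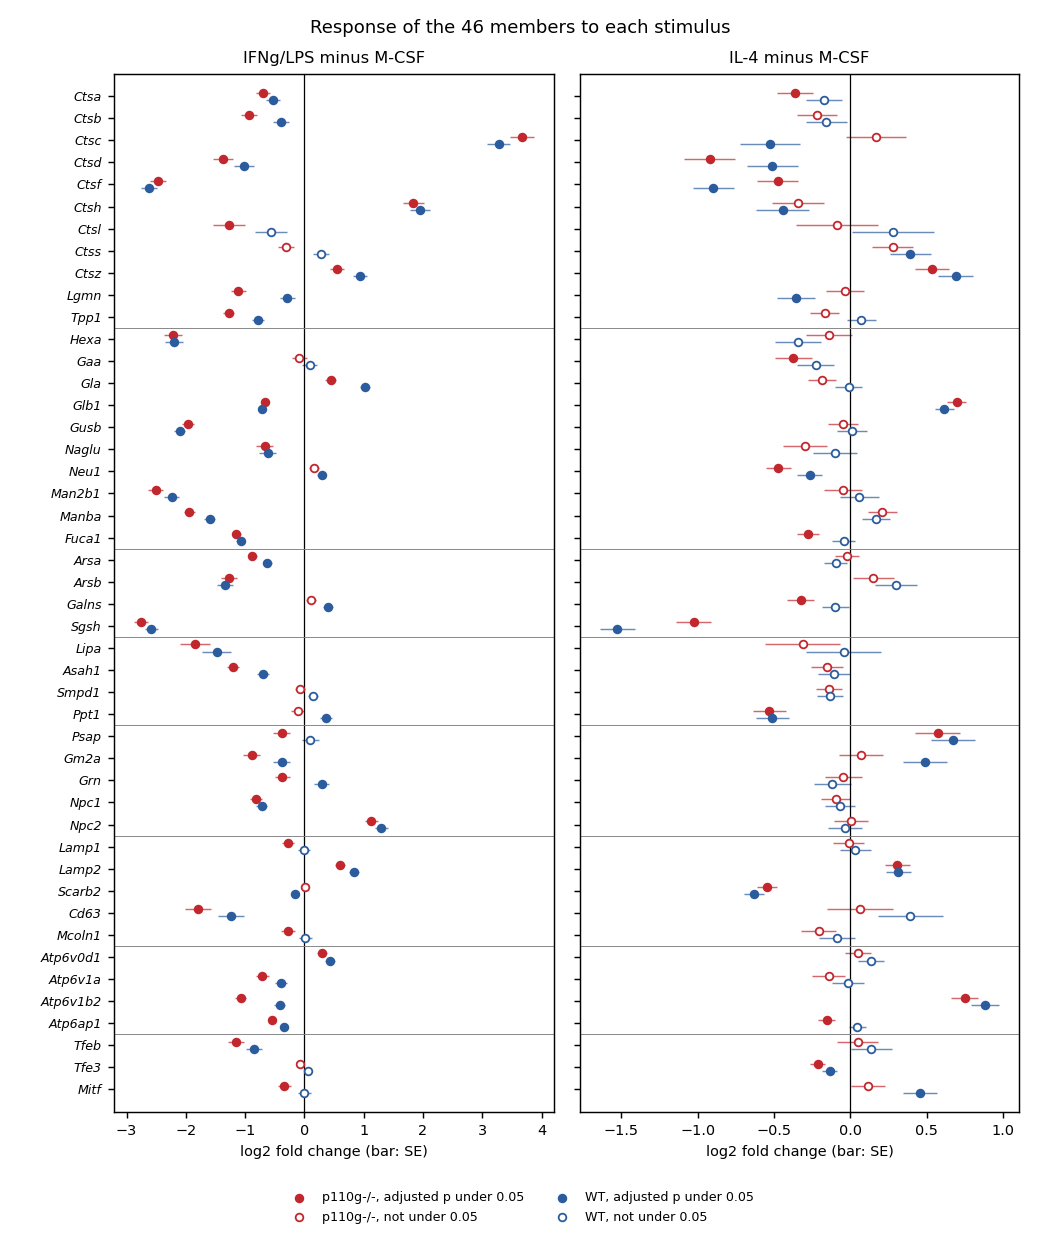
Log2 fold change of each member (rows, grouped by role) for IFNg/LPS and for IL-4 against M-CSF in p110g-/- and WT macrophages. Points are estimates, bars are ± SE, and filled points passed an adjusted p of 0.05. Under IFNg/LPS most points of both genotypes lie below 0.

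Other lysosomal genes, from lists of the same pathway, were called in both directions under IFNg/LPS. Their counts stand beside 36.2% of all tested genes that rose and 36.8% that fell in p110g-/-, and 36.3% and 37.5% in WT. Of 28 other acid hydrolases 11 rose and 12 fell in p110g-/- and 12 rose and 10 fell in WT cells. Galc, the galactosylceramidase, had the smallest adjusted p among those that fell, with a log2 fold change of -3.29 in p110g-/- and -3.41 in WT. The ribonuclease gene Rnaset2b rose (log2 fold change 1.27 in p110g-/- and 1.38 in WT). Of 28 other membrane proteins 8 rose and 13 fell in p110g-/- and 15 rose and 11 fell in WT. Slc15a3, a transporter of histidine and peptides, rose (log2 fold change 1.81 in p110g-/- and 2.19 in WT), and the calcium and sodium channel gene Tpcn1 fell (-2.63 in p110g-/- and -2.91 in WT). Of 16 other V-ATPase subunits 6 rose and 6 fell in p110g-/- and 7 rose and 6 fell in WT. Atp6v0d2, the d2 counterpart of Atp6v0d1, fell (log2 fold change -4.48 in p110g-/- and -3.80 in WT) and so did Atp6v0a1 (-2.47 in p110g-/- and -2.19 in WT), while its counterpart Atp6v0a2 rose (1.24 in p110g-/- and 1.21 in WT).

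Of 20 genes that sort hydrolases to the lysosome 6 rose and 13 fell in p110g-/- and 6 rose and 11 fell in WT. Sort1, the sorting receptor sortilin, fell (log2 fold change -4.89 in p110g-/- and -4.98 in WT), and M6pr, the cation-dependent mannose 6-phosphate receptor, rose (1.74 in p110g-/- and 1.53 in WT). Of 12 cystatins and serpins, families of protease inhibitors, 5 rose and 2 fell in p110g-/- and 8 rose and 2 fell in WT. Cst7, cystatin F, which inhibits Ctsc among others, rose by 7.52 in p110g-/- and 7.19 in WT on the log2 scale, and Serpinb9 by 4.997 in p110g-/- and 4.64 in WT. Of 29 autophagy genes 9 rose and 13 fell in p110g-/- and 10 rose and 9 fell in WT. Sqstm1, the cargo receptor p62, rose (log2 fold change 2.27 in p110g-/- and 1.96 in WT), and the kinase gene Ulk2 fell (-1.47 in p110g-/- and -1.68 in WT). Of 27 genes of nutrient sensing at the lysosome 3 rose and 13 fell in p110g-/- and 5 rose and 14 fell in WT, Lamtor4 with a log2 fold change of -1.12 in p110g-/- and -1.05 in WT.

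Markers of other cells also moved with IFNg/LPS. The 8 neutrophil markers summed to a signal of 1.04 to 1.91 in p110g-/- IFNg/LPS and 2.13 to 3.28 in WT IFNg/LPS libraries, against 10 to 26.1 in p110g-/- M-CSF and 6.67 to 32.2 in WT M-CSF libraries, with Elane at or under the level of 3 reads in the IFNg/LPS libraries. Ly6g alone was higher under IFNg/LPS, at 0.0057 to 0.0186 in p110g-/- and 0.0159 to 0.0177 in WT libraries. In M-CSF it was at 0 to 0.0038 in p110g-/- and 0 to 0.0015 in WT libraries. S100a8 overlapped in WT (1.09 to 1.91 in IFNg/LPS, 1.67 to 7.8 in M-CSF). The others were lower without overlap. The 6 dendritic cell markers summed to a signal of 7.91 to 20.7 in p110g-/- IFNg/LPS and 1.56 to 4.93 in WT IFNg/LPS libraries, against 0.334 to 0.645 in p110g-/- M-CSF and 0.286 to 0.332 in WT M-CSF libraries. Most of that was Ccr7, which activated macrophages can also express, at 7.19 to 20 in p110g-/- and 0.979 to 3.93 in WT cells, and Cd209a was at 0 in all 6 IFNg/LPS libraries. Xcr1, a receptor of cross-presenting dendritic cells, was at 0.646 to 0.668 in p110g-/- IFNg/LPS and 0.561 to 0.948 in WT IFNg/LPS, against 0.0675 to 0.0798 in p110g-/- M-CSF and 0.0607 to 0.0682 in WT M-CSF libraries. The fibroblast sum was 0.342 to 0.583 in p110g-/- IFNg/LPS and 0.291 to 0.36 in WT IFNg/LPS, against 1.61 to 3.63 in p110g-/- M-CSF and 0.392 to 2.49 in WT M-CSF libraries. The B cell sum was 0.0445 to 0.123 in p110g-/- IFNg/LPS and 0.0553 to 0.0944 in WT IFNg/LPS, against 0.149 to 0.617 in p110g-/- M-CSF and 0.164 to 0.427 in WT M-CSF libraries. Neither sum overlapped between IFNg/LPS and M-CSF in either genotype. Of the fibroblast markers, Col1a1, Col1a2, Col3a1 and Pdgfra were lower without overlap in both genotypes. Dcn and Lum were higher without overlap in both, and Pdgfrb overlapped. Dcn was at 0.0802 to 0.185 in p110g-/- IFNg/LPS against 0.054 to 0.0678 in p110g-/- M-CSF libraries. In WT it was at 0.121 to 0.151 in IFNg/LPS against 0.0097 to 0.0353 in M-CSF libraries. In WT the mast cell and basophil sum (0.0485 to 0.0577 in IFNg/LPS, 0.181 to 0.256 in M-CSF) and the T and NK cell sum (0.06 to 0.0768 in IFNg/LPS, 0.0822 to 0.0938 in M-CSF) did not overlap either. Of the T and NK cell markers Klrb1c alone was lower without overlap (0 to 0.0037 in IFNg/LPS, 0.0236 to 0.0303 in M-CSF). Cd3d and Cd8a overlapped. The part of all these markers in the results on the members was not tested.

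The next comparison was of IL-4 with M-CSF. IL-4 libraries were taken at 48 h and M-CSF libraries at 24 h, so time and stimulus cannot be told apart here. Ctsz, Glb1, Psap, Lamp2 and Atp6v1b2 rose in both genotypes, while Ctsd, Ctsf, Neu1, Sgsh, Ppt1, Scarb2 and Tfe3 fell in both. In p110g-/- macrophages 5 members rose and 12 fell, against 22.7% and 21.2% of all tested genes (43.9% in either direction). In WT macrophages 8 members rose and 10 fell, against 22.9% and 21.1% of all tested genes (43.9%). The count of lower members was 21 with libraries 2 and 3 only in p110g-/-, and in WT it was 5 without WT IL-4 library 2 or WT M-CSF library 3 and 4 without WT IL-4 library 3. The 5 that rose and the 7 that fell in both genotypes stand beside 18.2% and 15.9% of all tested genes. The median log2 fold change of the members was -0.12 in p110g-/- and -0.05 in WT cells, and that of all tested genes was -0.0099 in p110g-/- and 0.0031 in WT.

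Glb1 had the smallest adjusted p among the members that rose. It had signals of 7.19, 7.04 and 7.79 in p110g-/- IL-4 against 4.52, 4.37 and 4.71 in p110g-/- M-CSF, and 7.48, 7.47 and 7.3 in WT IL-4 against 5.02, 4.84 and 4.68 in WT M-CSF libraries. All 6 IL-4 libraries lay above all 6 M-CSF libraries, with log2 fold changes of 0.69 ± 0.060 (adjusted p = 3.4e-07) in p110g-/- and 0.61 ± 0.060 (adjusted p = 1.4e-06) in WT. Atp6v1b2 rose as well, with signals of 86.8, 76.8 and 72.6 in p110g-/- IL-4 against 45.3, 47.6 and 47.6 in p110g-/- M-CSF, and 94.1, 95 and 90.8 in WT IL-4 against 43.7, 56.7 and 52.4 in WT M-CSF libraries. These groups did not overlap (log2 fold change 0.75 ± 0.091, adjusted p = 1e-05 in p110g-/- and 0.88 ± 0.091, adjusted p = 2.2e-06 in WT). Ctsz had signals of 101, 86.4 and 99.4 in p110g-/- IL-4 against 67.5, 65 and 65 in p110g-/- M-CSF, and 99.4, 88.3 and 83.1 in WT IL-4 against 55.2, 54.8 and 57.5 in WT M-CSF libraries. Its groups did not overlap in either genotype (log2 fold change 0.53 ± 0.11, adjusted p = 0.0014 in p110g-/- and 0.69 ± 0.11, adjusted p = 0.00018 in WT). Psap rose by 0.57 in p110g-/- and 0.67 in WT, and Lamp2 by 0.31 in p110g-/- and 0.31 in WT, on the log2 scale.

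Sgsh fell under IL-4, with signals of 1.93, 1.95 and 2.37 in p110g-/- IL-4 and 1.82, 1.47 and 1.46 in WT IL-4 libraries, against the M-CSF values given above. Every IL-4 library lay below every M-CSF library (log2 fold change -1.03 ± 0.11, adjusted p = 3.9e-06 in p110g-/- and -1.53 ± 0.11, adjusted p = 8.3e-08 in WT). Scarb2 had signals of 4.28, 4.58 and 4.85 in p110g-/- IL-4 against 6.19, 7.22 and 6.64 in p110g-/- M-CSF, and 4.32, 4.27 and 4.27 in WT IL-4 against 6.7, 6.23 and 7 in WT M-CSF libraries. Its groups did not overlap (log2 fold change -0.55 ± 0.066, adjusted p = 8.9e-06 in p110g-/- and -0.63 ± 0.066, adjusted p = 2.4e-06 in WT). Ctsf had signals of 0.579, 0.783 and 0.803 in p110g-/- IL-4 and 0.547, 0.581 and 0.507 in WT IL-4 libraries, below all M-CSF libraries (log2 fold change -0.48 ± 0.13, adjusted p = 0.0091 in p110g-/- and -0.90 ± 0.13, adjusted p = 7.6e-05 in WT). The p110g-/- call of Ctsf was lost without p110g-/- IL-4 library 1 (adjusted p = 0.054). Neu1 had signals of 3.72, 3.22 and 3.69 in p110g-/- IL-4 against 5.13, 4.44 and 5.17 in p110g-/- M-CSF, and 4.41, 4.18 and 4.15 in WT IL-4 against 5.49, 4.66 and 5.21 in WT M-CSF libraries. Its groups did not overlap in either genotype. Neu1 fell to 0.721 times its M-CSF level in p110g-/- (log2 fold change -0.47 ± 0.082, adjusted p = 0.00026) and to 0.831 times in WT (-0.27 ± 0.082, adjusted p = 0.015), and the WT call was lost without WT M-CSF library 1 or WT IL-4 library 3 (adjusted p up to 0.072).

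Ppt1 had log2 fold changes of -0.53 in p110g-/- and -0.51 in WT, and Ctsd of -0.92 in p110g-/- and -0.51 in WT. The WT call of Ctsd was lost without number 2 or 3 of WT IL-4 or of WT M-CSF (adjusted p up to 0.089). Among the regulators, Tfe3 had signals of 5.92, 6.22 and 6.53 in p110g-/- IL-4 and 6.54, 6.8 and 6.88 in WT IL-4 libraries and was called lower in both (log2 fold change -0.21 ± 0.050, adjusted p = 0.0025 in p110g-/- and -0.14 ± 0.050, adjusted p = 0.037 in WT). Its groups did not overlap, and the WT call was lost when any of 5 libraries was left out (adjusted p up to 0.12), namely all 3 of WT IL-4 and numbers 2 and 3 of WT M-CSF. Mitf had signals of 10.2, 8.72 and 8.64 in p110g-/- IL-4 and 9.02, 8.93 and 8.87 in WT IL-4 libraries, rose in WT (log2 fold change 0.45 ± 0.11, adjusted p = 0.004) and had 0.11 ± 0.11 (adjusted p = 0.44) in p110g-/-. Tfeb had signals of 4.08, 3.79 and 4.08 in p110g-/- IL-4 and 4.05, 3.73 and 3.65 in WT IL-4 libraries and was not called (log2 fold change 0.046 ± 0.14, adjusted p = 0.81 in p110g-/- and 0.14 ± 0.14, adjusted p = 0.44 in WT).

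**Figure D4:**
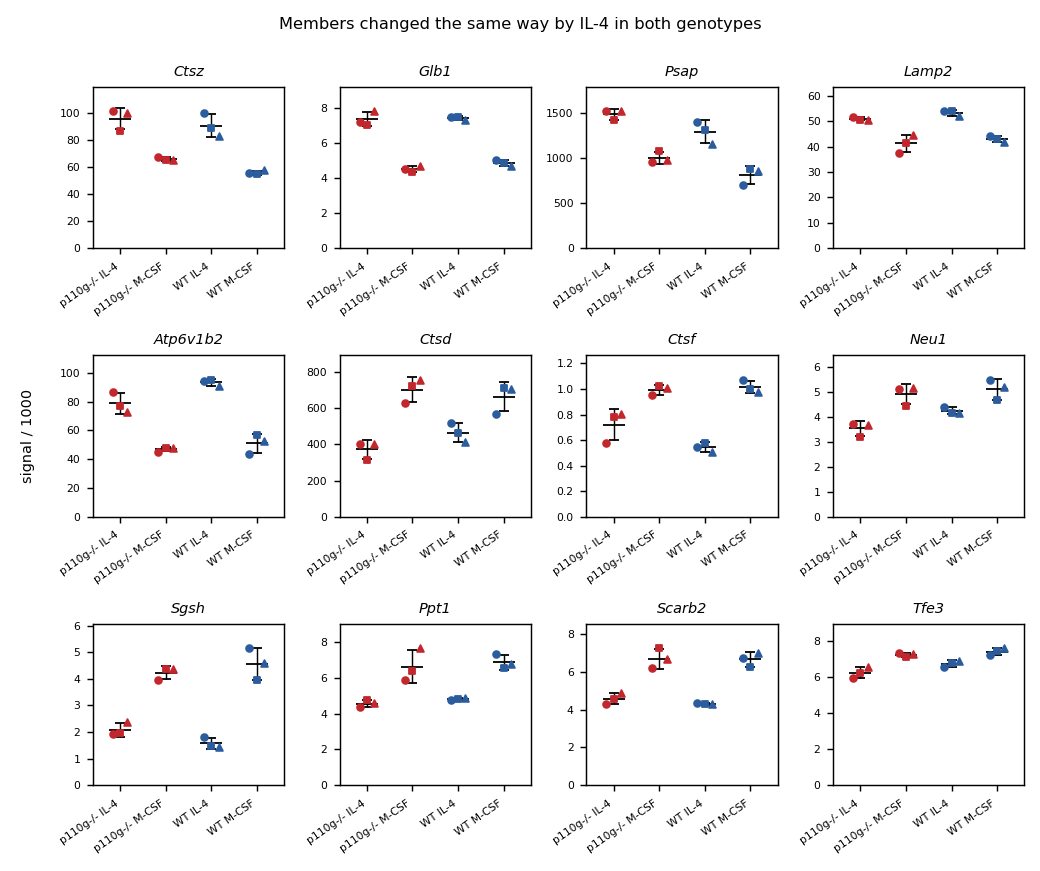
Signal divided by 1000 of the 12 members called in the same direction by IL-4 in both genotypes. Circles, squares and triangles are libraries 1, 2 and 3, red p110g-/- and blue WT, and black bars are the mean ± SD; Sgsh lies lower in all 6 IL-4 libraries than in all 6 M-CSF libraries, and Glb1 higher.

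The remaining calls under IL-4 were made in 1 genotype. In p110g-/- macrophages Ctsa (-0.37), Gaa (-0.37), Fuca1 (-0.28), Galns (-0.33) and Atp6ap1 (-0.15) fell, with log2 fold changes in WT of -0.17, -0.23, -0.045, -0.099 and 0.044. The call of Ctsa was lost without p110g-/- IL-4 library 2 or p110g-/- M-CSF library 3 (adjusted p up to 0.088), that of Gaa without p110g-/- IL-4 library 2 or p110g-/- M-CSF library 1 (up to 0.081), and that of Atp6ap1 without p110g-/- IL-4 library 2 or 3 or any p110g-/- M-CSF library (up to 0.17). In WT macrophages Ctss (log2 fold change 0.39) and Gm2a (0.49) rose, and Ctsc (-0.53), Ctsh (-0.44) and Lgmn (-0.36) fell. In p110g-/- the log2 fold changes of these 5 in the same order were 0.28, 0.068, 0.17, -0.34 and -0.037. The WT calls were lost without 1 library for Gm2a (WT M-CSF 1, adjusted p = 0.052), without WT IL-4 library 1 or WT M-CSF library 2 or 3 for Ctss (up to 0.14), without number 2 or 3 of WT IL-4 or WT M-CSF for Lgmn (up to 0.14), without any WT IL-4 library or WT M-CSF library 1 or 3 for Ctsc (up to 0.15), and without any of 14 libraries for Ctsh (up to 0.22). The difference of the IL-4 response between the genotypes was called for 0 of the 46 members and 0% of all tested genes with limma. At an unadjusted p under 0.05 limma gave 3 higher and 3 lower members, against 571 and 585 of the 15627 tested genes. Among the members edgeR and DESeq2 called 0.

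The counts of the other pathway lists under IL-4 stand beside 22.7% of all tested genes that rose and 21.2% that fell in p110g-/-, and 22.9% and 21.1% in WT. V-ATPase subunits rose in 4 and fell in 2 of 16 in p110g-/-, and rose in 7 and fell in 1 of 16 in WT. Atp6v0a1 rose by 0.81 in p110g-/- and 1.06 in WT, and Atp6v0a2 by 0.79 in p110g-/- and 0.77 in WT, on the log2 scale. Of 28 other acid hydrolases 8 rose and 8 fell in p110g-/- and 9 rose and 8 fell in WT, Naaa, an acid amidase, with a log2 fold change of 2.34 in p110g-/- and 1.497 in WT. Of 28 other membrane proteins 2 rose and 12 fell in p110g-/- and 5 rose and 13 fell in WT, and of 29 autophagy genes 3 rose and 10 fell in p110g-/- and 1 rose and 12 fell in WT. Ulk1, the kinase that starts autophagy, fell (log2 fold change -0.67 in p110g-/- and -0.81 in WT). Of 27 nutrient-sensing genes 3 rose and 9 fell in p110g-/- and 4 rose and 11 fell in WT, where Tfec, the fourth gene of the MiT/TFE family, rose (log2 fold change 1.89 in p110g-/- and 1.45 in WT). Sorting genes rose in 4 and fell in 4 of 20 in p110g-/- and rose in 4 and fell in 3 in WT, and cystatins and serpins rose in 3 and fell in 0 of 12 in p110g-/- and rose in 4 and fell in 1 in WT. The 4 osteoclast markers in the table (of 6 listed) summed to a signal of 21.4 to 32.7 in p110g-/- IL-4 and 26.1 to 28.4 in WT IL-4 libraries, against 5.41 to 7.25 in p110g-/- M-CSF and 3.33 to 5.34 in WT M-CSF libraries. Dcstamp and Ocstamp, which fusing macrophages also express, led that list. In p110g-/- the neutrophil sum (5.36 to 9.24 in IL-4, 10 to 26.1 in M-CSF), the fibroblast sum (0.768 to 1.41 in IL-4, 1.61 to 3.63 in M-CSF) and the dendritic cell sum (0.267 to 0.298 in IL-4, 0.334 to 0.645 in M-CSF) were also lower without overlap. Of the dendritic cell markers there, Flt3, Siglech and Cd209a were lower without overlap, and Xcr1 and Ccr7 overlapped. Zbtb46 was higher without overlap (0.0659 to 0.0882 in IL-4, 0.0087 to 0.0152 in M-CSF). The part of all these markers in the results was not tested.

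The comparison of p110g-/- with WT under IFNg/LPS asked how these genes differed between the labelled genotypes in inflammatory macrophages. Of the 46 members 12 were lower in p110g-/- and 0 were higher, against 7.79% of all tested genes that were lower and 6.94% that were higher (14.7% in either direction). They were the proteases Lgmn, Ctsb, Ctsl and Tpp1, the glycosidase Gla, the lipid-degrading enzymes Ppt1, Smpd1 and Asah1, the granulin precursor Grn, the membrane protein Lamp2, the pump subunit Atp6v1b2 and the transcription factor Tfe3. At an unadjusted p under 0.05 limma gave 2 higher and 17 lower members, against 2227 and 2290 of the 15627 tested genes. For higher members 0 were called by edgeR or DESeq2, and for lower members edgeR called 12 and DESeq2 15. The median log2 fold change was -0.18 over the members and 0.0006 over all tested genes. Without the library labelled p110g-/- IFNg/LPS number 1, whose Pik3cg lay above that of the WT libraries, 7 of the 12 were still called lower (Lgmn, Ctsb, Gla, Ppt1, Grn, Lamp2 and Atp6v1b2), and Gusb was called higher.

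Atp6v1b2 had the smallest adjusted p. Its signals under IFNg/LPS were 23.2, 20.7 and 22.7 in p110g-/- and 36.7, 38.2 and 38.7 in WT libraries, which did not overlap. The log2 fold change was -0.77 ± 0.091 (adjusted p = 5.7e-05). Lgmn had signals of 40.2, 36.1 and 34.9 in p110g-/- and 65.2, 78.2 and 73.2 in WT libraries, again without overlap (log2 fold change -0.96 ± 0.12, adjusted p = 0.00012). Grn had signals of 63.1, 72.8 and 78.2 in p110g-/- and 98, 129 and 145 in WT libraries. All 3 p110g-/- libraries lay below all 3 WT libraries (log2 fold change -0.79 ± 0.12, adjusted p = 0.00056). Gla, whose values are given above, had a log2 fold change of -0.49 ± 0.091 (adjusted p = 0.0021). These 4 calls held under all 27 alternative analyses, and they were the only ones of the 12 to hold when the 2 IFNg/LPS groups were fitted alone.

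The other 8 had log2 fold changes from -1.005 (Ctsl, adjusted p = 0.02) to -0.16 (Tfe3, adjusted p = 0.037). Ctsl had signals of 22.5, 33.6 and 37.1 in p110g-/- and 41.1, 78.4 and 70.1 in WT libraries, with number 1 lowest in both genotypes. Ppt1 had a log2 fold change of -0.54 ± 0.11 (adjusted p = 0.0032) and Ctsb -0.54 ± 0.13 (adjusted p = 0.012); the call of Ctsb was lost without WT library 2 (adjusted p = 0.055). Smpd1 had a log2 fold change of -0.30, Tpp1 -0.34, Lamp2 -0.29 and Asah1 -0.37. The calls of Ctsl, Tpp1, Asah1 and Smpd1 were each lost without WT library 2, without WT library 3 or without p110g-/- library 1 (adjusted p up to 0.091, 0.093, 0.11 and 0.1). That of Lamp2 was lost without WT library 1 or 2 or p110g-/- library 2 (up to 0.12), and that of Tfe3 without any of 5 libraries (up to 0.1), p110g-/- libraries 1 and 3 and WT libraries 2 and 3 under IFNg/LPS among them. The count of lower members was 5 without WT library 2, 7 without WT library 3 or p110g-/- library 1, and 13 with the library number as a block, which added Manba (adjusted p = 0.031).

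**Figure D5:**
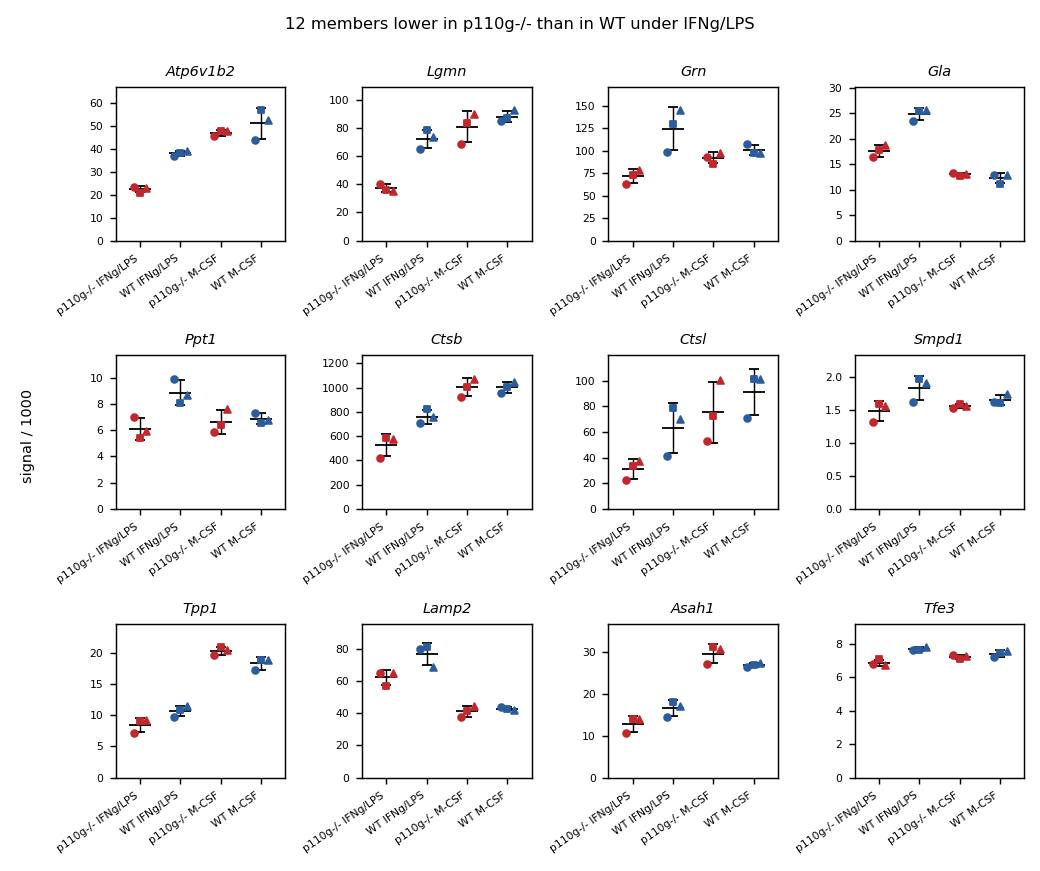
Signal divided by 1000 of the 12 members called lower in p110g-/- than in WT under IFNg/LPS, in the IFNg/LPS and M-CSF libraries of both genotypes. Circles, squares and triangles are libraries 1, 2 and 3, red p110g-/- and blue WT, and black bars are the mean ± SD. Under IFNg/LPS none of the 12 overlaps between the genotypes, but they were chosen by their adjusted p, so this adds no support. Of all 46 members 22 did not overlap there, and the share over all tested genes was not counted.

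Of the 3 transcription factors, Tfe3 was lower in all p110g-/- libraries than in all WT libraries under IFNg/LPS, and Tfeb (log2 fold change -0.15 ± 0.14, adjusted p = 0.51) and Mitf (0.042 ± 0.11, adjusted p = 0.85) were not called. Of the other lists, beside the 7.79% of all tested genes that were lower and 6.94% that were higher, 7 of 28 acid hydrolases were lower in p110g-/- and 1 was higher: Hgsnat, an acetyltransferase of heparan sulfate breakdown, had a log2 fold change of -0.71 ± 0.12 (adjusted p = 0.00099), and the carboxypeptidase gene Prcp 0.85 ± 0.12 (adjusted p = 0.00033). Of 28 other membrane proteins 5 were lower and 0 higher, of 27 nutrient-sensing genes 6 were lower and 1 higher, of 29 autophagy genes 4 were lower and 1 higher, of 20 sorting genes 2 were lower and 2 higher, of 12 cystatins and serpins 3 were lower and 0 higher, and of 16 V-ATPase subunits 1 was lower and 0 higher. Litaf (-0.68), Tfec (-0.80), the folliculin gene Flcn (-0.52) and the cystatin C gene Cst3 (-0.51) were among the lower genes, as log2 fold changes. The neutrophil and dendritic cell marker sums given above did not overlap between the genotypes under IFNg/LPS either, the neutrophil sum lower and the dendritic cell sum higher in p110g-/-. Among the neutrophil markers only S100a8 was lower without overlap, and among the dendritic cell markers only Ccr7 was higher without overlap. The mast cell and basophil sum was also higher without overlap (0.0616 to 0.191 in p110g-/-, 0.0485 to 0.0577 in WT). Of that list Kit alone was higher (0.0541 to 0.179 in p110g-/-, 0.0289 to 0.034 in WT). Mcpt8, near the level of 3 reads in p110g-/-, was lower without overlap (0 to 0.0035 in p110g-/-, 0.0047 to 0.0112 in WT). Cpa3 and Fcer1a overlapped. The macrophage sum overlapped, but Cd14 (77.1 to 102 in p110g-/-, 18.6 to 29.1 in WT) and Csf1r were higher in p110g-/- without overlap. Cd68 (12.5 to 22.4 in p110g-/-, 23.8 to 39 in WT), Fcgr1, Itgam and Lyz2 were lower without overlap, and Emr1 and Mertk overlapped. The part of all these markers in the differences was not tested.

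Whether the genotype effect itself differed between IFNg/LPS and M-CSF was tested as an interaction, in which 3 members were called lower and 0 higher, against 1.42% and 1.02% of all tested genes (2.44% in either direction). Atp6v1b2 had an interaction of -0.66 ± 0.13 (adjusted p = 0.015) on the log2 scale, Lgmn of -0.83 ± 0.18 (adjusted p = 0.022) and Gla of -0.58 ± 0.13 (adjusted p = 0.028). For Atp6v1b2 and Lgmn, IFNg/LPS lowered the gene more in p110g-/- than in WT cells, and for Gla it raised the gene less. Grn had a log2 fold change of -0.66 ± 0.17 (adjusted p = 0.055). The call of Atp6v1b2 held under all 27 alternatives, that of Lgmn was lost without any of 5 libraries (adjusted p up to 0.063) and that of Gla without any of 7 (up to 0.074). Number 2 of each of the 4 groups and p110g-/- M-CSF number 3 ended both calls, and p110g-/- M-CSF number 1 and WT IFNg/LPS number 3 ended that of Gla as well. With the library labelled p110g-/- IFNg/LPS number 1 left out, 4 members were called lower, the added one being Ppt1. At an unadjusted p under 0.05 limma gave 0 higher and 16 lower members, against 1345 and 1369 of the 15627 tested genes. With edgeR 0 members were called higher and 3 lower, and with DESeq2 0 higher and 10 lower.

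In M-CSF alone no difference between p110g-/- and WT was called in the members, 0 higher and 0 lower with limma, against 1.06% and 1.27% of all tested genes (2.34% in either direction). At an unadjusted p under 0.05, 2 members were higher and 0 lower with limma, against 961 and 1096 of the 15627 tested genes. Among the members edgeR called 0, and DESeq2 called 1, Gm2a, higher. Gm2a had signals of 31.6, 35.4 and 31.7 in p110g-/- and 20.5, 23 and 23.4 in WT M-CSF libraries (log2 fold change 0.56 ± 0.15, adjusted p = 0.057). The next smallest adjusted p was that of Mitf, with 8.3, 8.75 and 8.35 in p110g-/- and 5.41, 7.27 and 7.08 in WT libraries (log2 fold change 0.37 ± 0.11, adjusted p = 0.11). Tfeb had a log2 fold change of 0.16 ± 0.14 (adjusted p = 0.73) and Tfe3 -0.036 ± 0.050 (adjusted p = 0.87). The median log2 fold change was 0.08 over the members and -0.0009 over all tested genes. Of the other lists, 1 of 28 membrane proteins was higher in p110g-/- (Slc36a1, an amino acid transporter, log2 fold change 0.43 ± 0.10, adjusted p = 0.035) and 0 genes of the other 6 were called.

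In IL-4 0 members were called with limma, against 1.34% of all tested genes higher and 1.99% lower in p110g-/- (3.33% in either direction). At an unadjusted p under 0.05, 3 members were higher and 6 lower with limma, against 1111 and 1237 of the 15627 tested genes. Among the members edgeR called 0, and DESeq2 called 3 higher and 1 lower. Sgsh had signals of 1.93, 1.95 and 2.37 in p110g-/- and 1.82, 1.47 and 1.46 in WT IL-4 libraries, without overlap, but did not pass the threshold (log2 fold change 0.40 ± 0.11, adjusted p = 0.075). Neu1 had a log2 fold change of -0.26 ± 0.082 (adjusted p = 0.1) and Ctsc 0.62 ± 0.20 (adjusted p = 0.11). Tfeb had a log2 fold change of 0.066 ± 0.14 (adjusted p = 0.89), Tfe3 -0.12 ± 0.050 (adjusted p = 0.27) and Mitf 0.034 ± 0.11 (adjusted p = 0.94). The median log2 fold change was -0.0066 over the members and -0.0034 over all tested genes. Among the other lists, Naaa was higher (log2 fold change 0.86 ± 0.12, adjusted p = 0.00063) and Tpcn1 lower in p110g-/- (-0.47 ± 0.10, adjusted p = 0.017), and at most 1 gene per direction was called in any list.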

How the data were processed

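RNA of 18 libraries, 3 for each of 6 groups, was read from 1 deposited table of 16474 genes. Per the submitters' processing notes, the authors worked with build mm9 and the tools DESeq, Bowtie2 and CASAVA 1.8.2; the counting method and the use of strand are not given in the sources used here. The deposited unit is signal, and the values show it to be read counts scaled by 1 factor in each library. All values under 1000 (100%) came out as whole reads within a tolerance of 0.1, so counts could be recovered; on these edgeR called 2190 genes and DESeq2 2751 for p110g-/- against WT in IFNg/LPS, where limma called 2303. Library depth was 40.1 to 69.6 M reads (M, 1e6), and 3 reads were worth a signal of 2.15 to 4.74; floors cover counting error only. Of the symbols, 1 stood on 2 rows and was no member.

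The values were analysed as log2(signal + 1) with limma 3.58.1 in R 4.3.3, with trend and robust moderation, in 1 fit of the 18 libraries with 6 group means and 12 residual degrees of freedom. The pseudocount makes fold changes of low genes too small. Genes were kept if 3 or more libraries had a signal of 10 or more, which left 15627 for the 9 comparisons, with Benjamini-Hochberg adjustment within each at 0.05, and the members were then read from these tables. Errors of log2 fold changes are SE. The steps were tested on simulated data. Alternatives were a pseudocount of 10, no filter, no trend or robust moderation, the library number as a block, TMM scaling, edgeR 4.0.16 and DESeq2 1.42.0 on the recovered counts, only the groups compared, only libraries numbered 2 and 3, and leaving out each of the 18 libraries.

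The labels do not say what a library number marks. Numbers were taken to pair the libraries where every same-numbered pair of deviations from the group means correlated above 0.1. The main fit had no block in any comparison, so its calls are unpaired, and the block was run only as an alternative. This held for IFNg/LPS in WT (0.256, 0.191 and 0.162), IL-4 in WT (0.458, 0.347 and 0.179), IL-4 in p110g-/- (0.397, 0.248 and 0.187) and p110g-/- against WT in IFNg/LPS (0.546, 0.34 and 0.256).

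The 46 members, the pathway lists and the marker lists were chosen with earlier results of these data known. Library values are given for up to 3 called members per direction and comparison with the smallest adjusted p, for Tfeb, Tfe3 and Mitf, for members called in an interaction and for Pik3cg, and the other members with values by library were chosen after their values were seen. From the other lists up to 2 genes per direction are named, and some that this would name are not reported here. Levels per kilobase use principal transcripts of the GRCm38 annotation.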

Additional observations from a re-analysis of the deposited data

Results flagged for a closer look

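For 3 members the effect of the genotype differed between IFNg/LPS and M-CSF by a test of the difference itself. The log2 fold change of p110g-/- against WT was lower in IFNg/LPS than in M-CSF by a difference of -0.66 for Atp6v1b2 (-0.77 in IFNg/LPS and -0.11 in M-CSF), of -0.83 for Lgmn (-0.96 in IFNg/LPS and -0.13 in M-CSF) and of -0.58 for Gla (-0.49 in IFNg/LPS and 0.087 in M-CSF). The adjusted p of these interactions with limma was 0.015 for Atp6v1b2, 0.022 for Lgmn and 0.028 for Gla. Of all tested genes, 1.42% were called lower and 1.02% higher in this interaction (2.44% in either direction). The call of Atp6v1b2 held under every alternative analysis. That of Lgmn was lost when any of 5 single libraries was left out (adjusted p up to 0.063). That of Gla was lost when any of 7 single libraries was left out (adjusted p up to 0.074).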

How the results depend on the processing

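Of 414 values (46 members in 9 comparisons) 125 were called, and 94 of these calls held under all 27 alternatives. A called value changed sign in 0 cases; 185 sign changes were of values called in neither analysis. TMM scaling moved the median of all genes by at most 0.022 on the log2 scale.

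Counts of members that left a range of 1.5 times were these. Members lower under IL-4 in p110g-/- numbered 21 with libraries 2 and 3 only, against 12. Members higher in p110g-/- than WT in M-CSF numbered 1 with the replicate block, with DESeq2 and with only the groups compared and 2 with libraries 2 and 3 only, against 0, and all genes called there numbered 555 (block), 673 (DESeq2) and 688 (libraries 2 and 3), against 365. In IFNg/LPS, members higher in p110g-/- numbered 1 with libraries 2 and 3 only, and members lower numbered 4 with only the groups compared and 19 with libraries 2 and 3 only, against 12; all genes called numbered 708 and 4166 in these fits, against 2303. In IL-4, members higher in p110g-/- numbered 1 (block), 3 (DESeq2) and 7 (libraries 2 and 3) and members lower 1 (DESeq2) and 3 (libraries 2 and 3), against 0, and all genes 921 (DESeq2) and 2285 (libraries 2 and 3), against 520. In the IFNg/LPS interaction, members lower numbered 6 (block), 10 (DESeq2) and 11 (libraries 2 and 3), against 3, and all genes 716 (block), 892 (DESeq2), 1708 (libraries 2 and 3) and 211 (only the groups compared), against 381. In the IL-4 interaction all genes numbered 10 (pseudocount 10), 2 (no trend or robust moderation), 8 (block), 77 (DESeq2) and 385 (libraries 2 and 3), against 0. The cause was not tested.

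With 1 library left out, members higher and lower under IFNg/LPS ranged over 7 to 8 and 26 to 32 in p110g-/- and 10 to 13 and 23 to 26 in WT, and all genes over 10821 to 11564 in p110g-/- and 10919 to 11615 in WT. Under IL-4 they ranged over 5 to 6 and 9 to 13 in p110g-/- (all genes 5820 to 7326) and 7 to 9 and 4 to 12 in WT (all genes 5601 to 7304); in WT the lower count was 5 without WT IL-4 library 2 or WT M-CSF library 3 and 4 without WT IL-4 library 3. For p110g-/- against WT they ranged over 0 to 1 and 5 to 14 in IFNg/LPS (all genes 1466 to 2728), 0 to 2 and 0 to 0 in IL-4 (all genes 239 to 727) and 0 to 1 and 0 to 0 in M-CSF (all genes 239 to 430). In the interactions members lower ranged over 1 to 7 for IFNg/LPS (all genes 183 to 633), with 7 without WT IFNg/LPS library 1, 5 without p110g-/- IFNg/LPS library 3 and 1 without number 2 of any of the 4 groups or p110g-/- M-CSF number 3, and all genes over 0 to 89 for IL-4, with 89 without p110g-/- IL-4 library 1. Counts of all genes fell by over 1.5 times to 1466 without p110g-/- IFNg/LPS library 2 (IFNg/LPS), to 239 to 276 without number 2 or 3 of p110g-/- or WT IL-4 (IL-4), to 241 and 239 without p110g-/- M-CSF library 1 or 2 (M-CSF), and to 183 to 212 without number 2 of any of those 4 groups, p110g-/- M-CSF number 3 or WT M-CSF number 3 (IFNg/LPS interaction), where it was 633 without WT IFNg/LPS library 1.

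Where the library numbers pair the samples, the block moved the following calls. In WT IFNg/LPS Lgmn was lost and Ctsl gained (adjusted p = 0.026), and in WT IL-4 Hexa was gained (0.026). In p110g-/- IL-4 Manba (0.045) and Ctsh were gained. In p110g-/- against WT under IFNg/LPS Manba was gained (0.031). No other call changed with the block in those comparisons. Elsewhere the numbers are shared without pairing, with lowest correlations of 0.0284, 0.0546 and 0.053.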
